A study of Homo sapiens with 16 samples.

Results

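Metallothioneins are small cysteine-rich proteins that bind zinc and copper in the cytosol, and in human cells most of their genes lie side by side on chromosome 16. The report covers MT1X, MT1G, MT2A, MT1E and MT1F, 5 of the 63677 gene IDs in each count table, matched by symbol to the Ensembl IDs ENSG00000187193, ENSG00000125144, ENSG00000125148, ENSG00000169715 and ENSG00000198417. Of the 5, MT1X, MT1G and MT2A passed the filter on low counts and MT1E and MT1F did not. The genes were taken up with earlier results of these data known, in which several of them stood above the untreated level after treatment. Fold changes over 0 h, and the counts of calls beside them, are therefore a description of what chose the genes and support nothing.

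RNA was sequenced from 2 related human melanoma lines. UACC62R was selected from UACC62P over 2 months in 2 uM vemurafenib, which blocks mutant BRAF, and was kept in it, while UACC62P is the parental line. Whether the treated UACC62R cells had vemurafenib in their medium is not stated for them. Each line was given 10 uM CCG-222740, a compound known to block transcription by MRTF and SRF, for 2, 6 or 24 h, or was left untreated at 0 h, with 2 libraries in each of the 8 groups. UACC62R is 1 resistant line, all cultures shared DMEM with serum, no vehicle library was used here, and the labels do not say that replicates were separate cultures, so the spread behind each p-value is that of these libraries and may be technical. The compound, its vehicle, the hours in culture and any separate batch of the 0 h libraries, whose label texts differ from the others, cannot be told apart in a comparison with 0 h. In bulk RNA, a change in all cells and a change in some of them cannot be told apart either.

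Cells hold the zinc sensor MTF1, a transcription factor that binds zinc and then short metal response elements in the promoters of metallothionein genes and of SLC30A1, the gene of a zinc exporter in the plasma membrane. Free zinc, copper and cadmium, glucocorticoids and oxidants are known to raise metallothionein transcripts. Metallothioneins store zinc, buffer it and react with oxidants through their cysteines.

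The letters searched in the promoters were the core of the metal response element, TGCACNC and TGCGCNC, on both strands, in the 250 bases before the start of each gene in the RefSeq table of GRCh38.p14. MT1X and MT2A were the 2 of the 5 members found in that table, and MT1G, MT1E and MT1F are named only. The promoters of the 2 members and of SLC30A1 are shown because their transcripts stood above 0 h at 2, 6 and 24 h in both lines, with each match in capitals, 5′ to 3′ on the gene's strand; a match on the other strand appears as its reverse complement. MT1X lies on the plus strand (chr16:56682220-56682469), MT2A on the plus strand (chr16:56608334-56608583) and SLC30A1 on the minus strand (chr1:211579162-211579411).
MT1X promoter: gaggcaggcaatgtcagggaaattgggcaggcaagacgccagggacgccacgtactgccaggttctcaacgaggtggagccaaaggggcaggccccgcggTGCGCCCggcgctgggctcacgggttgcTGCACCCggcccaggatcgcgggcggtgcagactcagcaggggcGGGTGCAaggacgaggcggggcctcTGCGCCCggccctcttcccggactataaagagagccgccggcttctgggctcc
MT2A promoter: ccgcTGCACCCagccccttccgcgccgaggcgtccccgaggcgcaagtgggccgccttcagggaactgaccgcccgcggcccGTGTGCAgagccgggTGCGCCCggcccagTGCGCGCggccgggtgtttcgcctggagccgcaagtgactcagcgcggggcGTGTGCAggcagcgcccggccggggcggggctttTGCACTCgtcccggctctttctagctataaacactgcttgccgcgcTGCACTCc
SLC30A1 promoter: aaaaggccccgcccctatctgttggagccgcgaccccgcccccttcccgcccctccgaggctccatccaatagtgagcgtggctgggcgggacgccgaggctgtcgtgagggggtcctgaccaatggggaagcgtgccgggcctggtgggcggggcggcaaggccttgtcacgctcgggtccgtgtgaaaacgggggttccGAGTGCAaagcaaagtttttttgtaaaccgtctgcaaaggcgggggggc
The MT1X promoter held 4 matches, the MT2A promoter 7 and the SLC30A1 promoter 1. Of 35091 promoters of the same length in the table, 24.8% held at least 1 match, 0.368% at least 4 and 0.0313% at least 7. A single match, as in SLC30A1, was therefore common, and 4 or 7 were rare. The promoter of MT1H, another metallothionein gene of the cluster, held 8 matches, and MT1H had 11 reads over all 16 libraries. In MT1X the matches nearest to the start spanned bases -53 to -47 and -78 to -72, and MT2A had one at bases -54 to -48 and another at -8 to -2, counted back from the start. A match is a description of letters and not a bound site.

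The coding sequences of the family are close to identical, which bears on how reads were counted. The coding sequences of the 3 members with values are shown from GENCODE v29 transcripts, with the bases that differ from MT2A in capitals.
MT2A coding sequence: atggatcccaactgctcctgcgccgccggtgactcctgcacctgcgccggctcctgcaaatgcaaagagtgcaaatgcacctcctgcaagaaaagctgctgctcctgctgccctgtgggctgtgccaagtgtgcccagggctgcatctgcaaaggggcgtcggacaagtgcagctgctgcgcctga
MT1X coding sequence: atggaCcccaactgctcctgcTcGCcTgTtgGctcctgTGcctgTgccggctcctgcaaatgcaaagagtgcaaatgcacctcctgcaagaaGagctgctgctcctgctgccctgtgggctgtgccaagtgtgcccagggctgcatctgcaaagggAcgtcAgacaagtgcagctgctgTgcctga
MT1G coding sequence: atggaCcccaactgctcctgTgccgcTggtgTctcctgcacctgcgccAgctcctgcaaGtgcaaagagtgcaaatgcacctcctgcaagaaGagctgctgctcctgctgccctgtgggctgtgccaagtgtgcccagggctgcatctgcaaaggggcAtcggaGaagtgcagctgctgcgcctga
Each of the 5 coding sequences had 186 bases, and 20 of its 61 codons, or 32.8%, were cysteine codons. MT1G had the same base as MT2A at 95.2% of positions, MT1X and MT1E each at 92.5% and MT1F at 91.4%. Among the MT1 genes, identity ran between 88.7% for MT1X and MT1F and 94.6% for MT1G and MT1E. The count tables leave out any 50-base read with several alignments. For windows, 1 transcript was chosen per gene. It had 450 bases for MT1X, 406 for MT1G, 786 for MT2A, 704 for MT1E and 690 for MT1F. Of all 50-base windows of each transcript, 54.9% occurred in no other gene for MT1X, 79.8% for MT1G, 95.1% for MT2A, 94.7% for MT1E and 96.4% for MT1F. These shares hold for the transcripts chosen. The count of MT1X thus rests on the smallest share of its own transcript among the 5, and its level is an undercount by an amount that was not estimated.

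Over the 16 libraries, MT2A had 586431 reads, MT1X 90056 and MT1G 4861. MT1E had 3 reads, 1 in each of 3 libraries of 6 h, and MT1F had 2, both in 1 library of UACC62P at 6 h. Both were therefore at or under 3 reads in every library, a floor of 0.09 to 0.116 CPM, the counts scaled to library size, and get no fold change. In exactly shared windows they were close to MT2A, the member with the most reads. The share of windows over 2 mismatches away from every other metallothionein gene compared was 68.5% for MT1E and 89.4% for MT1F, against 82.6% for MT2A, 60.5% for MT1G and 47.6% for MT1X. Whether the MT1E and MT1F transcripts were absent or were present and not counted cannot be told from these tables. Of the 14 other metallothionein genes with an ID, MT1A, MT1B, MT1M, MT1L, MT1HL1, MT1JP and MT1CP had 0 reads in every library, which allows up to 3 reads each, a limit that covers counting error only. MT1H had 11 reads in all and at most 3 in a library, MT1DP 1, MT3 2 and MT4 5. All 5 reads of MT4 were in the library labelled UACC62P 2 h replicate 1.

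**Figure D1:**
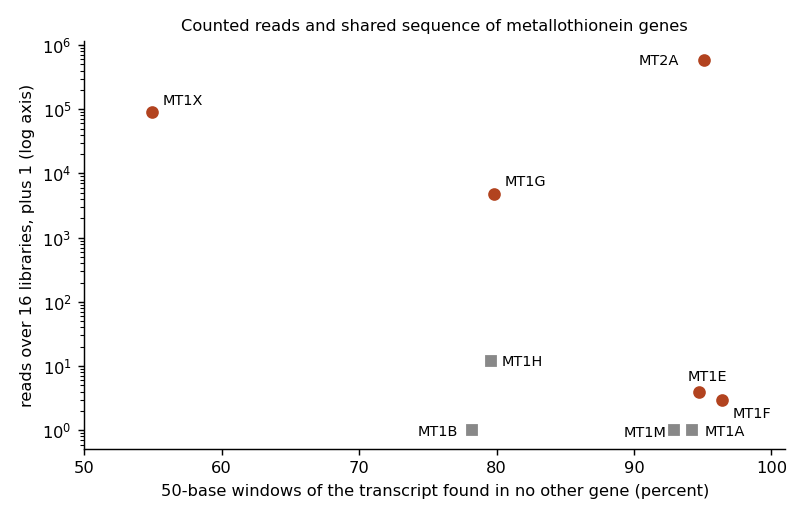
Reads counted over 16 libraries, plus 1, on a log axis, against the percent of each transcript's 50-base windows found in no other gene, for the 5 members (circles) and 4 other metallothionein genes (squares). MT1E and MT1F sit at the far right with 3 and 2 reads, while MT1X, with 54.9% of its windows its own, has 90056.

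Each library held 25.9 to 33.3 M reads in genes. The library labelled UACC62P 2 h replicate 1 went against its label. SOX10, a defining factor of melanocytes, measured 18.1 CPM there, against 20.0 to 30.1 CPM in the UACC62R libraries and 752 to 913 CPM in the other UACC62P libraries. The 6 melanocyte markers summed to 71.2 CPM in it, against 69 to 81.6 CPM in UACC62R and 1150 to 1440 CPM in the other UACC62P libraries. SOX10 made up most of that sum in UACC62P. TYR, another of the 6, measured 0.211 CPM in the library that went against its label and 123.8 to 151.5 CPM in the other UACC62P libraries. PMEL was low even in the latter, at 1.26 to 3.45 CPM. By SOX10, TYR and the sum, the melanocyte label held for UACC62P and the markers were low in UACC62R. Markers of epithelial, endothelial and blood cells summed to 0.835 to 2.98 CPM in all libraries, with CDH1, PECAM1 and HBB at 0. In that library MT1X stood at 59.1 CPM, MT1G at 7.99 CPM and MT2A at 797 CPM. Its MT1X and MT2A were near the untreated UACC62R levels and far from the other UACC62P library at 2 h. Its MT1G was above both, with 4.05 and 3.47 CPM in untreated UACC62R and 5.37 CPM in the other library. The tests leave it out (15 libraries, 20280 genes), so UACC62P at 2 h rests on 1 library, assumed to vary like the others. The fit of all 16 libraries is given where it changes a call of a member.

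MT1X is one of the MT1 forms made in many cell types. In UACC62R it stood at 56.4 and 47.7 CPM at 0 h, 319 and 275 CPM at 2 h, 565 and 505 CPM at 6 h, and 209 and 160 CPM at 24 h. In UACC62P it stood at 16.03 and 13.8 CPM at 0 h, 129 CPM at 2 h, 231 and 360 CPM at 6 h, and 53.0 and 49.3 CPM at 24 h. In both lines every treated library lay above every untreated one and the 6 h libraries were the highest. The 8 groups ran in the order UACC62R 6 h, UACC62R 2 h, UACC62P 6 h, UACC62R 24 h, UACC62P 2 h, UACC62R 0 h, UACC62P 24 h and UACC62P 0 h. The values of UACC62R at 2 h and UACC62P at 6 h overlapped, as did those of UACC62R at 0 h and UACC62P at 24 h. The 6 h libraries of UACC62P differed 1.56-fold.

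MT1G is another MT1 form, the least counted of the 3. In UACC62R it stood at 4.05 and 3.47 CPM at 0 h, 12.6 and 9.04 CPM at 2 h, 34.8 and 21.1 CPM at 6 h, and 10.1 and 9.08 CPM at 24 h. In UACC62P it stood at 2.098 and 1.46 CPM at 0 h, 5.37 CPM at 2 h, 16.02 and 16.7 CPM at 6 h, and 4.23 and 4.14 CPM at 24 h. Both 6 h groups were again the highest of their line, and every treated library exceeded the untreated ones. The lowest values rest on few reads, 61 and 40 in the UACC62P libraries at 0 h. The groups of UACC62R at 2 h and at 24 h overlapped, and the 6 h libraries of UACC62R differed 1.65-fold.

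MT2A is the broadly expressed form that usually accounts for most metallothionein in human cells. In UACC62R it stood at 968 and 940 CPM at 0 h, 1725 and 1881 CPM at 2 h, 2662 and 2674 CPM at 6 h, and 2103 and 1913 CPM at 24 h. In UACC62P it stood at 123 and 107 CPM at 0 h, 384 CPM at 2 h, 894 and 1114 CPM at 6 h, and 587 and 618 CPM at 24 h. The highest values of UACC62P, at 6 h, overlapped with those of untreated UACC62R, and every treated UACC62R library lay above all UACC62P libraries. Per kilobase of transcript, MT2A averaged 1214 CPM per kb in untreated UACC62R and 146.5 in untreated UACC62P, while MT1X averaged 115.7 in untreated UACC62R and 33.1 in untreated UACC62P. MT1G averaged 9.25 CPM per kb in untreated UACC62R and 4.38 in untreated UACC62P. MT2A was thus the highest of the 3 per length in both lines, with MT1X undercounted.

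**Figure D2:**
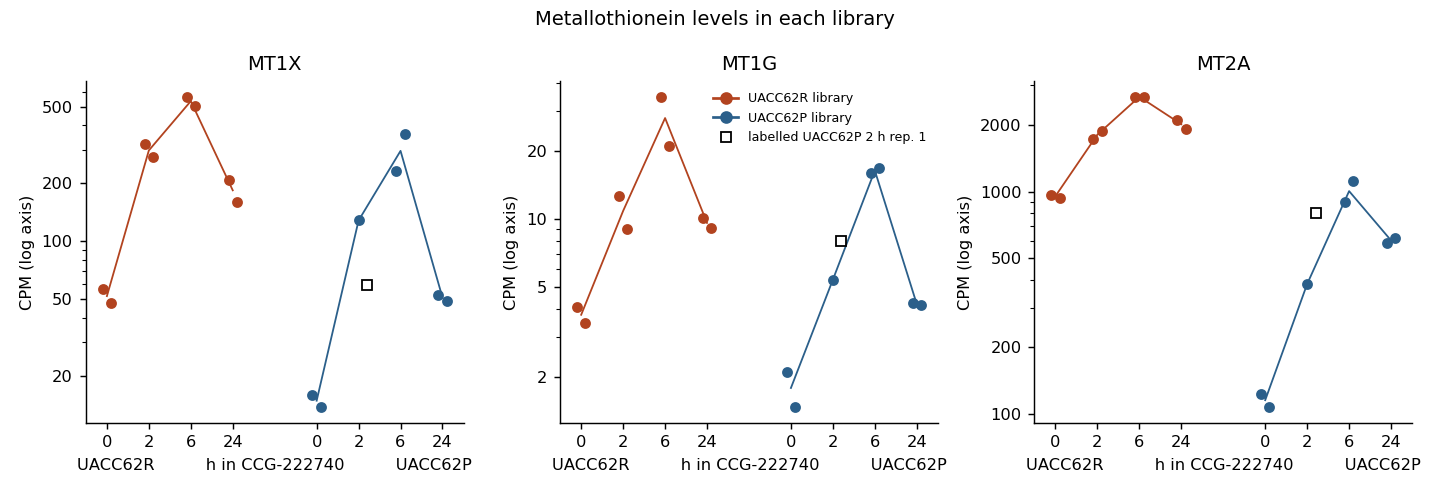
CPM on a log axis in each library for MT1X, MT1G and MT2A against hours in CCG-222740, UACC62R on the left and UACC62P on the right of each panel, with lines through group means and an open square for the library labelled UACC62P 2 h replicate 1. Each gene is highest at 6 h in both lines, and MT2A in untreated UACC62R (968 and 940 CPM) is level with UACC62P at 6 h (894 and 1114 CPM).

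The 5 genes together took 0.325 and 0.327% of all reads in genes in UACC62R at 6 h, against 0.104 and 0.102% in UACC62R at 0 h. In UACC62P they took 0.111 and 0.146% at 6 h, against 0.0136 and 0.0119% at 0 h. MT2A gave most of these reads in every library, between 74.1 and 94.8%. The mixture moved with time. As a share of MT2A reads, MT1X reads in UACC62R came to 5.83 and 5.07% at 0 h, to 18.5 and 14.6% at 2 h, to 21.2 and 18.9% at 6 h and to 9.92 and 8.36% at 24 h. In UACC62P they came to 13 and 12.9% at 0 h, to 33.5% at 2 h, to 25.8 and 32.3% at 6 h and to 9.02 and 7.98% at 24 h. At 2 and 6 h this share was above the 0 h share in both lines. At 24 h it lay above the 0 h share in UACC62R and below it in UACC62P. The library labelled UACC62P 2 h replicate 1 gave 7.42%.

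**Figure D3:**
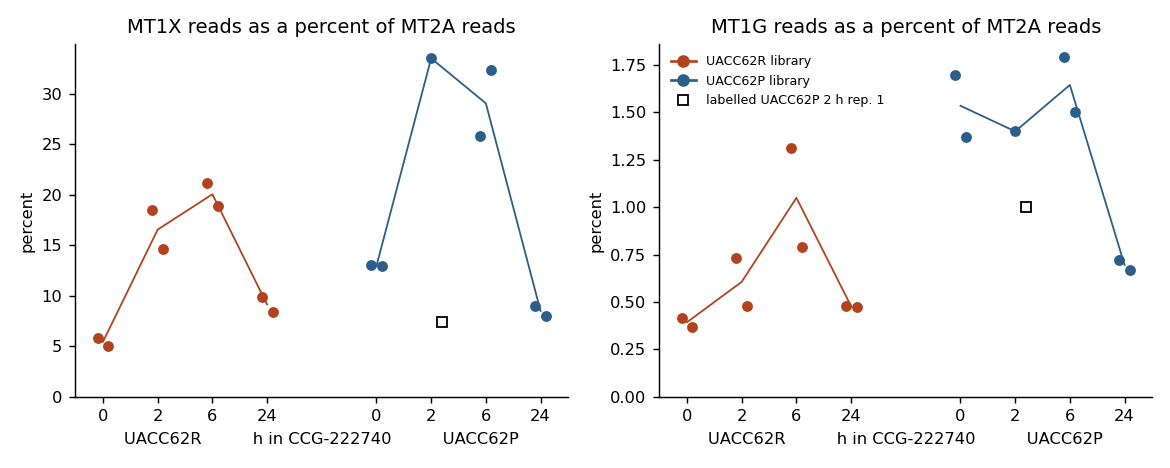
Reads of MT1X (left panel) and MT1G (right panel) as a percent of MT2A reads in each library, against hours in CCG-222740, UACC62R on the left and UACC62P on the right of each panel, with lines through group means and an open square for the library labelled UACC62P 2 h replicate 1. MT1X reaches 21.2 and 18.9% in UACC62R at 6 h and 25.8 and 32.3% in UACC62P at 6 h, and falls below 10% in all 4 libraries of 24 h.

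The comparison with 0 h asks how transcript levels in treated cells differed from untreated ones in each line, under the limits given above. Log2 fold changes come from edgeR's quasi-likelihood fit, with their standard errors, for 2 libraries against 2, or 1 against 2 for UACC62P at 2 h. In UACC62R, MT1X was above 0 h by 2.51 ± 0.18 at 2 h, 3.36 ± 0.18 at 6 h and 1.83 ± 0.17 at 24 h. MT1G was above by 1.53 ± 0.23 at 2 h, 2.90 ± 0.23 at 6 h and 1.36 ± 0.23 at 24 h. MT2A was above by 0.92 ± 0.10 at 2 h, 1.48 ± 0.10 at 6 h and 1.08 ± 0.10 at 24 h, the smallest change of the 3 at each time in this line. In UACC62R, 3 of the 3 tested members were called at each time (adjusted p under 0.05 after Benjamini-Hochberg correction across all genes), where 0.074% of all genes were called at 2 h, 0.666% at 6 h and 14.7% at 24 h.

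In UACC62P, MT1X was above 0 h by 3.10 ± 0.21 at 2 h, 4.30 ± 0.20 at 6 h and 1.77 ± 0.19 at 24 h. MT1G was above by 1.58 ± 0.32 at 2 h, which edgeR did not call and which was called by DESeq2, in the fit blocked on the replicate number and with no low-count filter, by 3.19 ± 0.26 at 6 h and by 1.22 ± 0.28 at 24 h. MT2A was above by 1.73 ± 0.12 at 2 h, 3.12 ± 0.11 at 6 h and 2.38 ± 0.10 at 24 h, by then the largest change of the 3. In UACC62P, edgeR called 2 of the 3 tested members at 2 h, where 0.0444% of all genes were, and 3 of 3 at 6 h and at 24 h, where 1.52% and 3.85% of all genes were. These counts repeat what chose the genes. With the library labelled UACC62P 2 h replicate 1 in the fit, 0 members were called at 2 h in either line, MT2A was not called at 6 or 24 h in UACC62R, MT1X and MT1G were not called at 24 h in UACC62P, and the common dispersion was 0.0622, against 0.00985 without it. In that fit UACC62P at 2 h was above 0 h by 2.65 for MT1X, 1.91 for MT1G and 2.36 for MT2A. The count in UACC62P at 24 h was 2, without MT1G, when any 1 of its 0 h or 24 h libraries was left out. The count in UACC62R at 2 h was 2, without MT1G, when UACC62R 0 h replicate 1, UACC62R 0 h replicate 2, UACC62R 2 h replicate 1 or either UACC62P 24 h library was left out. The 0 h comparisons of both lines share no library with each other, but the 3 comparisons of a line share its 0 h libraries.

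**Figure D4:**
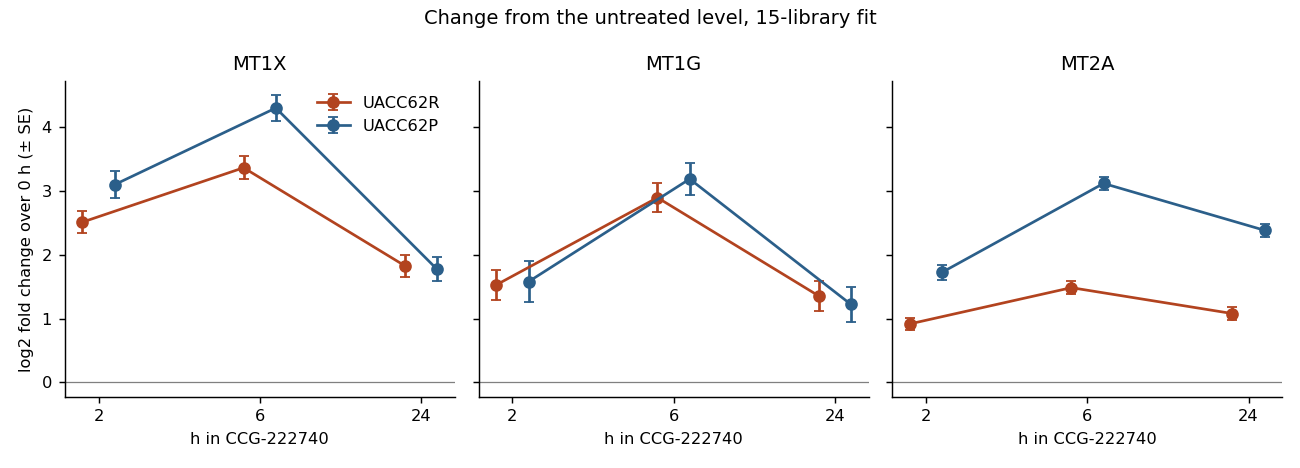
Log2 fold change over 0 h ± SE at 2, 6 and 24 h for MT1X, MT1G and MT2A in UACC62R and UACC62P (15-library fit). All 3 genes are highest at 6 h in both lines, and the lines lie apart for MT2A (1.48 in UACC62R and 3.12 in UACC62P at 6 h) but not for MT1G (2.90 and 3.19).

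The course within the treated cells was tested between neighbouring times, which share the treated libraries with the values that chose the genes. From 6 to 24 h all 3 members fell in both lines. In UACC62R at 24 h against 6 h, MT1X fell by 1.54 ± 0.17 on the log2 scale (edgeR, adjusted p = 9.59e-05), MT1G by 1.54 ± 0.21 (adjusted p = 0.000456) and MT2A by 0.41 ± 0.10 (adjusted p = 0.015), where 12.6% of all genes were called. In UACC62P, MT1X fell by 2.53 ± 0.18 (edgeR, adjusted p = 2.44e-05), MT1G by 1.96 ± 0.23 (adjusted p = 0.00275) and MT2A by 0.74 ± 0.10 (adjusted p = 0.0046), where 0.735% of all genes were called. MT2A had the smallest fall in each line, and its 24 h level was 0.755 of the 6 h level in UACC62R and 0.601 in UACC62P. In 16 libraries, MT1G in UACC62R was the only 1 of these 6 falls still called. The fall of MT2A in UACC62R had an adjusted p of 0.0528 without UACC62R 6 h replicate 1, 0.0893 without UACC62R 6 h replicate 2 and 0.0834 without UACC62R 24 h replicate 2. In UACC62P, without 24 h replicate 1, the adjusted p was 0.106 for MT2A and 0.0649 for MT1G, and without 24 h replicate 2 it was 0.0501 for MT2A.

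Between 2 and 6 h the levels went up, and the call depended on the fit. In UACC62R at 6 h against 2 h, MT1X was higher by 0.85 ± 0.17 (edgeR, adjusted p = 0.128), MT1G by 1.37 ± 0.21 (adjusted p = 0.0642) and MT2A by 0.57 ± 0.10 (adjusted p = 0.0882), so that 0 members passed the test, where 0.00986% of all genes were called. All 3 had an unadjusted p under 0.05, and DESeq2 called all 3. In a fit blocked on the replicate number the adjusted p was 0.00629 for MT1X, 0.000482 for MT1G and 0.00265 for MT2A. In UACC62P, where 0.0296% of all genes were called, MT2A rose by 1.39 ± 0.13 (edgeR, adjusted p = 0.000732), MT1X was higher by 1.20 ± 0.22 and MT1G by 1.61 ± 0.29 (adjusted p = 0.0912 each). With the library labelled UACC62P 2 h replicate 1 in the fit, MT2A was higher by 0.77 (adjusted p = 0.184) and was not called. With the block the adjusted p was 0.00647 for MT1X and 0.00424 for MT1G. All 3 members in both lines were called in the blocked fit, in DESeq2 and with no low-count filter. Some single libraries decided calls too. In UACC62R, MT1X and MT2A were called without UACC62P 6 h replicate 1 (adjusted p = 0.0388 each) or replicate 2 (adjusted p = 0.0394 each), and MT1G without UACC62R 6 h replicate 2 (adjusted p = 0.0118). In UACC62P, MT1X was called without UACC62P 6 h replicate 1 (adjusted p = 0.00842), and MT1G without UACC62R 6 h replicate 1 (adjusted p = 0.0373) or replicate 2 (adjusted p = 0.0282).

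The comparison of the untreated lines asks what differs between resistant and parental cells before treatment. All 3 tested members were higher in UACC62R at 0 h, where 53.9% of all genes were called, so that a call alone says little here and the size says more. MT2A was higher by 3.05 ± 0.11 (8.26-fold; edgeR, adjusted p = 1.33e-11), with means of 954 ± 20.3 CPM in UACC62R and 115 ± 11.5 CPM in UACC62P (SD, n = 2 each). MT1X was higher by 1.80 ± 0.19 (adjusted p = 1.45e-06), with 52.0 ± 6.19 CPM in UACC62R and 14.9 ± 1.59 CPM in UACC62P. MT1G was higher by 1.06 ± 0.28 (adjusted p = 0.00478), with 3.76 ± 0.412 CPM in UACC62R and 1.78 ± 0.45 CPM in UACC62P. The MT1G difference had an adjusted p of 0.0597 without UACC62P 0 h replicate 2. No library of one line overlapped with the other in any of the 3 genes.

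At 24 h all 3 were again higher in UACC62R, where 55.2% of all genes were called. MT1X was higher by 1.85 ± 0.17 (edgeR, adjusted p = 5.14e-07), MT1G by 1.20 ± 0.23 (adjusted p = 0.000504) and MT2A by 1.74 ± 0.10 (adjusted p = 2.76e-09). MT2A averaged 2008 ± 134 CPM in UACC62R and 602 ± 21.7 CPM in UACC62P at that time (SD, n = 2 each). MT2A differed less between the lines at 24 h than at 0 h, and the test of that change follows. Both comparisons of the lines held in all 16 libraries for the 3 genes. Melanocyte markers moved with the lines as given above, and their part in these differences was not tested.

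The difference of response is the change over 0 h in UACC62R minus that in UACC62P. It asks whether the lines changed unequally from 0 h, under the limits given above for comparisons with 0 h. It is the difference of 2 changes over 0 h of the kind that chose the genes, so it is not independent of that choice. MT2A rose less in UACC62R. At 6 h its difference was -1.63 ± 0.14 (edgeR, adjusted p = 0.000286), and MT2A was the 1 gene called of 20280, or 0.00493%. That count depended on the setting, with 43 genes in the blocked fit, 23 by DESeq2, 98 with no low-count filter and 0 in 16 libraries, and MT2A was called in each of these but the last. At 24 h its difference was -1.30 ± 0.14 (adjusted p = 0.00239), where 0.562% of all genes were called. In fold terms, MT2A stood 2.8-fold over 0 h in UACC62R at 6 h and 8.68-fold in UACC62P. Its CPM gained more in UACC62R, with means of 2668 CPM at 6 h against 954 CPM at 0 h, than in UACC62P, with 1004 CPM at 6 h against 115 CPM at 0 h, so the direction of the difference holds for ratios and not for CPM gained.

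The other differences of response did not pass. At 2 h, 0 genes of 20280 were called by edgeR (0%), with 586 at an unadjusted p under 0.05 and 1 called by DESeq2, which was MT2A. MT2A at 2 h had a difference of -0.81 ± 0.15, MT1X of -0.59 ± 0.27 and MT1G of -0.05 ± 0.39 (adjusted p = 1 each). At 6 h MT1X had a difference of -0.94 ± 0.25 (adjusted p = 0.591) and MT1G of -0.29 ± 0.34 (adjusted p = 1). At 24 h MT1X had a difference of 0.05 ± 0.25 (adjusted p = 0.984) and MT1G of 0.13 ± 0.37 (adjusted p = 0.957). The standard errors of MT1G leave room for differences of either sign. In 16 libraries MT2A had differences of -1.64 at 6 h and -1.31 at 24 h with an adjusted p of 1 each, so the calls rest on leaving out the library that went against its label, while the sizes at these times do not. At 2 h the sizes rest on it too, with differences in 16 libraries of -1.44 for MT2A, -0.14 for MT1X and -0.38 for MT1G (adjusted p = 0.495, 0.887 and 0.675).

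**Figure D5:**
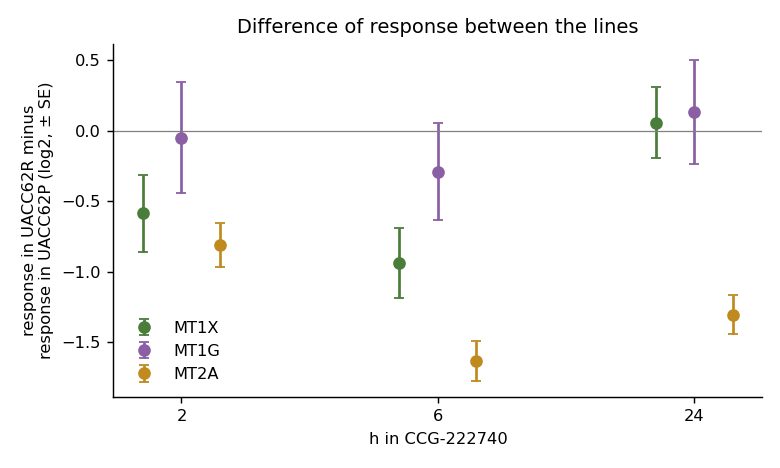
Difference of response (log2 change over 0 h in UACC62R minus that in UACC62P, ± SE) at 2, 6 and 24 h for MT1X, MT1G and MT2A. MT2A lies below 0 at each time (-0.81, -1.63 and -1.30), and MT1X and MT1G are close to 0 at 24 h.

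Among the other metallothionein genes 3 were tested, MT1XP1, MT1P1 and MT1P3, which are annotated as pseudogenes and whose reads cannot be told apart with confidence from those of their parent genes. MT1P3 in UACC62R stood at 8.98 and 5.78 CPM at 6 h, against 0.803 and 0.562 CPM at 0 h. In UACC62P it stood at 5.69 and 3.94 CPM at 6 h, against 0.275 and 0.146 CPM at 0 h. It was called at 6 h in both lines, by 3.43 ± 0.34 in UACC62R and 4.48 ± 0.42 in UACC62P. MT1XP1 was called at 6 h as well, by 2.74 ± 0.40 in UACC62R and 2.75 ± 0.47 in UACC62P, and MT1P1 was not called. Both called pseudogenes were thus highest when MT1X and MT1G were. The library labelled UACC62P 2 h replicate 1 held MT1XP1 at 3.53 CPM, against 0.836 CPM in the other library of its group. Untreated UACC62R held it at 0.702 and 0.718 CPM.

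The genes of zinc transport were looked at because MTF1 is known to link them to metallothioneins. Of 25 zinc transporters and MTF1, 22 were tested. At 6 h 1 rose and 1 fell in each line, and at 24 h 5 rose and 1 fell in UACC62R and 2 rose and 1 fell in UACC62P. Of all genes, 0.666% were called at 6 h in UACC62R and 1.52% in UACC62P, and 14.7% at 24 h in UACC62R and 3.85% in UACC62P. The list's median log2 change at 6 h was 0.06 in UACC62R and 0.07 in UACC62P, against 0.00 over all genes in both lines. SLC30A1, the zinc exporter, in UACC62R stood at 52.8 and 66.0 CPM at 0 h, 232 and 236 CPM at 2 h, 202 and 253 CPM at 6 h, and 110 and 115 CPM at 24 h. In UACC62P it stood at 56.7 and 49.96 CPM at 0 h, 267 CPM at 2 h, 220 and 301 CPM at 6 h, and 104 and 138 CPM at 24 h. SLC30A1 was thus near its highest level by 2 h, where the metallothioneins were still below theirs. Its log2 change from 2 to 6 h was -0.04 ± 0.16 in UACC62R and -0.03 ± 0.20 in UACC62P (edgeR, adjusted p = 0.993 and 0.998).

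Between the untreated lines, SLC30A1 differed by 0.15 ± 0.17 in UACC62R over UACC62P (edgeR, adjusted p = 0.469), where MT2A differed by 3.05. SLC39A10, a zinc importer gene, changed the other way. It was below 0 h by 1.32 ± 0.15 at 6 h and 1.60 ± 0.16 at 24 h in UACC62R, and by 1.79 ± 0.16 at 6 h and 2.07 ± 0.16 at 24 h in UACC62P, all 4 called, and at 2 h it was not called in either line. The MTF1 transcript had log2 changes over 0 h between -0.08 and 0.09 over both lines and all 3 times, with SEs of 0.09 to 0.11, and was not called. Between the lines it was called lower in UACC62R at 24 h, where 55.2% of all genes were called, and not at 0 h. Its 24 h levels were 43.9 and 37.0 CPM in UACC62R and 48.6 and 46.5 CPM in UACC62P. SLC30A7, which carries zinc into the secretory pathway, rose by 0.51 ± 0.10 in UACC62R (edgeR, adjusted p = 0.00477) and 0.56 ± 0.11 in UACC62P (adjusted p = 0.00953) at 24 h.

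The genes that flank the metallothionein cluster on chromosome 16 were a comparison by position. Of 9 listed, 7 were tested and 0 were called by edgeR at 6 h in either line, where 0.666% of all genes in UACC62R and 1.52% in UACC62P were, with 2 at an unadjusted p under 0.05 in each line and 0 called by DESeq2 in UACC62R and 1 in UACC62P. Their median log2 change at 6 h was 0.01 in UACC62R and -0.02 in UACC62P. At 24 h BBS2, a part of the ciliary BBSome, rose by 0.48 ± 0.10 in UACC62R and 0.45 ± 0.10 in UACC62P.

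Other known inducers of metallothioneins have their own target genes. Of 11 heat shock genes, 4 rose at 6 h in UACC62R, where 0.666% of all genes were called, and 5 in UACC62P, where 1.52% were, and 0 were called at 24 h in either line (edgeR; 1 in UACC62R and 0 in UACC62P at an unadjusted p under 0.05, and 0 by DESeq2). HSPA1A, an inducible HSP70 gene with a near-identical copy in HSPA1B, was above 0 h by 2.41 ± 0.32 in UACC62R and 2.86 ± 0.34 in UACC62P at 6 h. The cochaperone gene BAG3 was above by 0.66 ± 0.12 in UACC62R and 0.69 ± 0.12 in UACC62P. HSPA1A and BAG3 had their largest log2 change at 6 h, as the metallothioneins had, and at 24 h HSPA1A stood at 0.29 ± 0.31 in UACC62R and -0.19 ± 0.35 in UACC62P. Not all of the list did so. DNAJB1 in UACC62R was above 0 h by 0.89 ± 0.18 at 2 h and 0.53 ± 0.18 at 6 h, called at neither time.

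Of 9 genes of the response to oxidants, 0 were called in UACC62R at 6 h (edgeR; 4 at an unadjusted p under 0.05 and 0 by DESeq2) and 3 rose in UACC62P, where 0.666% and 1.52% of all genes were called. At 24 h 3 rose in UACC62R, where 14.7% of all genes were called, and 1 in UACC62P, where 3.85% were. SLC7A11, the cystine importer, rose by 0.56 ± 0.12 in UACC62R and 1.51 ± 0.12 in UACC62P at 24 h. HMOX1 of the same list was named after its values were seen. In UACC62R it was above 0 h by 1.87 ± 0.51 at 2 h and 1.88 ± 0.51 at 6 h, called at neither time. In UACC62P it was among the 3 that rose at 6 h. From 6 to 24 h in UACC62P, where 0.735% of all genes were called, HMOX1 fell and SLC7A11 rose. Of 12 tested genes of copper handling, 0 were called at 6 h in either line, where the same shares of all genes were (edgeR; 2 in each line at an unadjusted p under 0.05 and 0 by DESeq2). SLC31A1, the copper importer, rose by 0.37 ± 0.07 in UACC62R and 0.30 ± 0.07 in UACC62P at 24 h.

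Of 10 tested glucocorticoid-responsive genes, with their receptor, 1 fell in UACC62R at 6 h, where 0.666% of all genes were called, and 1 rose in UACC62P, where 1.52% were. The gene that rose was PER1, a clock gene, above 0 h by 0.77 ± 0.20 in UACC62R, not called, and by 1.56 ± 0.22 in UACC62P at 6 h. At 2 h, where 0.074% of all genes were called in UACC62R and 0.0444% in UACC62P, PER1 was the 1 gene of the list called in each line, above 0 h by 1.24 ± 0.20 in UACC62R (edgeR, adjusted p = 0.0297) and by 1.72 ± 0.26 in UACC62P (adjusted p = 0.0308). At 24 h 2 of the 10, FKBP5 and KLF9, fell in UACC62R, where 14.7% of all genes were called. In UACC62P 1, PER1, rose at 24 h, where 3.85% were called. All 3 are listed as glucocorticoid-responsive. These 3 genes were picked after their values were seen. The lists themselves were not tested. Leaving aside HMOX1, and PER1 at 24 h, the calls over 0 h given for the named pseudogenes and list genes were lost in 16 libraries. The exceptions were MT1P3 at 6 h and SLC39A10 at 24 h in both lines and HSPA1A at 6 h in UACC62P.

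Genes with a course most like that of the members were ranked by Pearson r over the 15 libraries between a gene's log2 CPM above its own line's 0 h mean and the mean of the same over the tested members, among 10430 protein-coding genes outside the family. NOTCH1, a receptor of cell-to-cell signalling, came first with r = 0.96. It was followed by SLC38A9, a lysosomal amino acid sensor, and RAB40C, both with r = 0.92. ZNF623, HSPB8 and RAB40B had r = 0.91, and ZSCAN9 and ZNF160 r = 0.90. The median r over all candidates was 0.01, and 1% of them lay above 0.76. NOTCH1 was above 0 h by 0.60, 1.21 and 0.61 at 2, 6 and 24 h in UACC62R, and by 0.71, 1.66 and 0.94 in UACC62P. Its course had the shape of the metallothioneins with smaller changes. Among the members, MT1X had r = 0.98 with the mean that includes it, MT1G 0.97 and MT2A 0.90. These libraries share lines and times, so r is a description with no p.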

How the data were processed

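Polyadenylated RNA of 16 libraries was read as single 50 bp reads from stranded libraries, per the labels' protocols. Per the submitters' processing notes, reads were handled with HISAT2 2.1.0, HTSeq 0.6.1, Trimmomatic 0.33, bcl2fastq 2.19.0 and FastQC 0.11.5 on hg19. How HTSeq treated strand was not given in the sources used. The authors deposited raw counts for 63677 gene IDs per library, of which 52181 were matched to a symbol, and 5 summary lines, which were left out of library sizes. The summary lines put 6.12 to 17.85% of all reads as unaligned and 18.6 to 22.0% as having several alignments. Among unique alignments, 3.31 to 4.66% fell outside genes and 5.99 to 6.81% were ambiguous between genes.

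Counts were fitted with edgeR 4.0.16 (limma 3.58.1, R 4.3.3) by the quasi-likelihood F test with TMM scaling, filterByExpr and a coefficient per group in 15 libraries (20280 genes, 7 residual degrees of freedom); the fit with all 16 tested 19352 genes. Calls were made at an adjusted p under 0.05 (Benjamini-Hochberg, across all tested genes) in 15 comparisons. Standard errors divide the log2 fold change by the square root of F. CPM values were scaled by TMM within 16 libraries, which moves the members by at most 1.4% against scaling within 15. Alternatives were the 16 libraries, the replicate number as a block, DESeq2 1.42.0, other size factors and filters, and each library left out. The fit was tested on simulated counts.

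The members, lists and tests were chosen with earlier results of these data known, as was leaving out the library labelled UACC62P 2 h replicate 1. Named genes were the members, SLC30A1, SLC39A10 and MTF1, list genes called the same way in both lines at 6 or 24 h (at most 5 per list), and the 8 genes most like the members at a mean log2 CPM of 2 or more (prior count 2). One gene that this rule named is not reported here. Same-numbered libraries deviated together in 21 of 21 pairs of groups (correlations 0.174 to 0.718 over 8273 genes). The numbers thus appear to pair libraries, a property of the data that no label states. The main fit did not use this pairing, so its p-values ignore it. Only the alternative fit blocked on the replicate number used it. Floors are 3 reads and cover counting error only. Windows and coding sequences came from GENCODE v29 transcripts, and promoters from RefSeq, both of another build than the counts, and no coordinate was carried between builds.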

Additional observations from a re-analysis of the deposited data

Results flagged for a closer look

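A test of the difference itself marked 1 gene at 2 times. The response of MT2A over 0 h in UACC62R minus that in UACC62P was -1.63 ± 0.14 at 6 h (edgeR, adjusted p = 0.000286; responses of 1.48 in UACC62R and 3.12 in UACC62P). At 24 h it was -1.30 ± 0.14 (edgeR, adjusted p = 0.00239; responses of 1.08 in UACC62R and 2.38 in UACC62P). MT2A also stood 8.26-fold higher in untreated UACC62R, and both differences use those 0 h libraries. Both are also built from the changes over 0 h that chose the genes. Over the alternatives other than the 16 libraries, the difference ran between -1.77 and -1.48 at 6 h, with an adjusted p of at most 0.00339, and between -1.43 and -1.19 at 24 h, with an adjusted p of at most 0.0169. Groups of 2 libraries were too small to look for single libraries that stand apart by their gap.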

How the results depend on the processing

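The number of members called was the same in all 15 comparisons with DESeq2 size factors in edgeR and with a filter of CPM of at least 1 in 4 libraries. In 16 libraries it was 0 at 2 h against 0 h in UACC62R (3 in the 15) and in UACC62P (2), 1 at 24 h against 0 h in UACC62P (3), 0 at 6 h against 2 h in UACC62P (1), 1 at 24 h against 6 h in UACC62R (3) and 0 in UACC62P (3), and 0 for the difference of response at 6 h and at 24 h (1 each). For 6 h against 2 h in UACC62R (0) and UACC62P (1), the replicate block gave 3 and 3, DESeq2 3 and 3, and no filter 3 and 3, and library size alone gave 1 in UACC62R. For the difference of response, DESeq2 gave 1 at 2 h, and no filter 1 at 2 h and 2 at 6 h. The block also called MT1G at 2 h in UACC62P (log2 1.74), as did DESeq2 (1.58) and no filter (1.57); the block changed no other call of a member. With each library left out in turn, counts ran 0 to 2 for 6 h against 2 h in UACC62R and 1 to 2 in UACC62P, 2 to 3 for 24 h against 6 h in UACC62R and 1 to 3 in UACC62P, 2 to 3 for 2 h against 0 h in UACC62R, 24 h against 0 h in UACC62P and the lines at 0 h, and were constant in the other comparisons. Without UACC62P 2 h replicate 2 no comparison with UACC62P at 2 h could be made.

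Signs reversed for small differences of response: MT1X at 24 h was -0.07 without UACC62P 0 h replicate 1, -0.05 without UACC62R 0 h replicate 2, -0.00252 without UACC62P 24 h replicate 2 and -0.16 without UACC62R 24 h replicate 1; MT1G at 24 h was -0.17 without UACC62P 0 h replicate 1, at 2 h 0.19 without UACC62P 0 h replicate 2, 0.06 without UACC62R 0 h replicate 1 and 0.17 without UACC62R 2 h replicate 2, and at 6 h 0.016 without UACC62R 6 h replicate 2. Over all libraries left out, MT1X at 24 h ran to 0.23, and MT1G ran between -0.35 and 0.19 at 2 h, between -0.70 and 0.016 at 6 h and between -0.17 and 0.38 at 24 h. The cause was not tested.

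All genes called at 6 h against 0 h numbered 135 in UACC62R and 308 in UACC62P in the 15 libraries, 5 and 10 in the 16, 566 and 1415 with the block, 293 and 653 by DESeq2 and 451 and 889 with no filter. At 24 h against 0 h they numbered 2984 and 780, 344 and 29, 4898 and 2448, 3359 and 1289, and 3436 and 1518 in the same order, and at 2 h against 0 h 15 and 9, 0 and 0, 74 and 30, 44 and 14, and 123 and 117. For the difference of response the counts were 1, 0, 43, 23 and 98 at 6 h and 114, 0, 822, 399 and 574 at 24 h. At 6 h against 2 h they were 2, 0, 148, 61 and 192 in UACC62R and 6, 0, 124, 59 and 258 in UACC62P, and at 24 h against 6 h 2550, 158, 4491, 2955 and 3171 in UACC62R and 149, 0, 1025, 423 and 722 in UACC62P. Library size alone moved the median of all genes between the lines to 0.102 at 0 h and 0.108 at 24 h, and no direction of a member changed. Depth limits the precision of MT1G at 0 h.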
